A study of Mus musculus with 38 samples.

Results

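The interferon-stimulated genes described here are Irf7, Isg15, Usp18, Ifit1, Ifit2, Ifit3, Oasl2, Rsad2 and Mx1. They were taken by symbol, as the non-control probes of the array that carry one of these 9 gene names, and gave 13 probes among 40628 probes of 29411 gene names. Levels were read on 38 one-colour Agilent arrays of total RNA from stromal vascular cells, labelled as infiltrating macrophages, of the epididymal fat of C57BL/6J mice that had entered the study after weaning. The low fat control diet (LFC) and the high fat, high sucrose diet (HFC) had 10 arrays each, at 6, 10 and 14 days and at weeks 0, 3, 6, 9, 12, 15 and 18. The same high fat, high sucrose diet given with 5, 20 or 75 µg of the botanical formulation KAL-1 (HF5, HF20 and HF75) had 6 arrays each, at weeks 3 to 18. Each diet had 1 array at each time point, although the design text speaks of biological replicates, and the labels do not say how many animals stand behind an array, so that the error of every diet comparison is the spread between time points.

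Interferons are secreted proteins made when a cell senses foreign or misplaced nucleic acid. Type I interferons bind the receptor formed by IFNAR1 and IFNAR2, whose kinases JAK1 and TYK2 activate transcription factors that, together with IRF9, bind the interferon-stimulated response element (ISRE) in the promoters of its target genes. In adipose tissue the macrophages and the other stromal vascular cells carry this receptor and respond to it.

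Promoter sequences are shown because the ISRE is the element through which these genes are known to respond together. RefSeq entries on GRCm38.p6 were found for 7 of the 9 genes, and Mx1 and Usp18 had none in the table used. The core of the element, 2 copies of GAAA on 1 strand with any 2 bases between them, was searched on both strands, with overlapping matches allowed, from 250 bases before to 50 bases after the annotated start site. Capitals mark its matches in the 200 bases before the start site, printed 5′ to 3′ on the strand of the gene for the 4 genes with a match and, for comparison, for Irf7, which had none.
Isg15, chr4:156200819-156201018, strand minus: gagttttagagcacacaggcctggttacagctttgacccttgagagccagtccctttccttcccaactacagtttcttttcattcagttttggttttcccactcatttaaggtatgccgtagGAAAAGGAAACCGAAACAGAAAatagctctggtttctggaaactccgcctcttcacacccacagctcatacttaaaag
Ifit1, chr19:34640689-34640888, strand plus: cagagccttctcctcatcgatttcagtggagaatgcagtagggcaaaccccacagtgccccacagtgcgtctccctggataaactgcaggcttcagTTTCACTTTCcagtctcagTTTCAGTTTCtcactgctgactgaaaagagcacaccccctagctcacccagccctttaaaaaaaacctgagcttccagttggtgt
Ifit3, chr19:34583329-34583528, strand plus: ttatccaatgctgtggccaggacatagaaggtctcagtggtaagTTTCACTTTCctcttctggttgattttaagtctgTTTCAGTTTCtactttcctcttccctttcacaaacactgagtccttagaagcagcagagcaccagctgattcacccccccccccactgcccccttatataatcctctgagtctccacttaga
Rsad2, chr12:26456453-26456652, strand minus: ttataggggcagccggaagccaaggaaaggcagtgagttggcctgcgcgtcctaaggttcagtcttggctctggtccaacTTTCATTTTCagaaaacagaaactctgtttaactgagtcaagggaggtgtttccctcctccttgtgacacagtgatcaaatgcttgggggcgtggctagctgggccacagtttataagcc
Irf7, chr7:141266425-141266624, strand minus: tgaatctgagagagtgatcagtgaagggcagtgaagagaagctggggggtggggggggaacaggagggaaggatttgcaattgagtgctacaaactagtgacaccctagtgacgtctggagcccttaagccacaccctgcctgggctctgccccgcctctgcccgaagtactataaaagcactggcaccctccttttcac

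Isg15 held 3 overlapping matches at positions -78, -72 and -66 from the start site, which form 1 run of 22 capitals. Ifit1 and Ifit3 held 2 matches each, and Rsad2 held 1. No match lay in the windows of Irf7, Oasl2 or Ifit2. Across the RefSeq table the motif was present in 3.44% of 32851 promoters, and in at least 1 promoter of 3.99% of 27025 genes. A match is a string of letters and not a measured binding site.

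A level below is the log2 processed signal of a probe minus the log2 of that array's 75th percentile, so that 0 is the brightness of the probe at the 75th percentile. Where a gene had several probes the brightest is given. Levels of different genes come from different probes and are not compared. The 75th percentile itself ran from 25.8 (HF5 at week 12) to 1983 intensity units, and 41.1% to 92.1% of probes were called well above background on an array. HF75 at week 3 was the next dimmest array, at 88.4 units and 47.2% of probes. Irf7, Ifit2 and Mx1 were each below that call on 1 or 2 arrays (Irf7 and Ifit2 on HF5 at week 12, Ifit2 and Mx1 on HF75 at week 3, Mx1 on LFC at week 18), the other 6 genes passed it on all 38 arrays, and no member was saturated. On 4 arrays, HF5 and HF20 at weeks 15 and 18, the diet label names the other dose than the sample name does, and the sample name was followed. The 10 macrophage markers fixed for the check of the cell type had a mean level from -1.10 to 2.22, with at least 8 of 10 well above background on every array. Fat cell markers were present too, with a mean level up to 5.10 (LFC at week 9). The fibroblast list had a mean level from 2.48 (HF20 at week 12) to 5.90 (HFC at day 10). The epididymis list ran from -8.08 (HF20 at week 6) to 4.53 (LFC at day 14). Skeletal muscle markers ran from -4.33 (HF20 at week 9) to 4.19 (LFC at week 6). Sperm markers ran from -5.85 (HF75 at week 6) to 3.30 (HF5 at week 9). In such mixed RNA, fewer cells of a type and less RNA per cell cannot be told apart.

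Irf7, Isg15 and Usp18 are the regulatory members. Irf7 is the transcription factor that amplifies the production of type I interferon, Isg15 is a small ubiquitin-like protein that is joined to other proteins, and Usp18 removes Isg15 from them and damps signalling at the interferon receptor. The level of Irf7 ran from -3.42 over a median of -1.02 to 1.56 in LFC, and from -2.09 over -0.90 to 2.06 in HFC. Its lowest, median and highest levels were -1.97, -1.61 and 0.95 in HF5, and -2.36, -1.15 and 0.17 in HF20. In HF75 the 5 measured levels were -2.13 (week 3), -0.33 (week 6), -1.50 (week 9), -1.43 (week 15) and -1.30 (week 18), and its spot at week 12 was left out as a replicate spot outlier. The highest values of Irf7 belonged to the day 6 arrays of both control diets, and the lowest to LFC at week 18.

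The level of Isg15 ran from -1.11 (LFC at week 9) over a median of 0.93 to 3.45 (LFC at day 6) in LFC. In HFC its lowest, median and highest levels were -0.40, 1.63 and 3.70, the last at day 6. The 3 formulation groups had medians of 1.30 (HF5), 1.32 (HF20) and 1.30 (HF75), with levels from -0.39 (HF75 at week 3) to 2.73 (HF75 at week 9). Isg15 at day 6 was thus the highest of its time course in both control diets, and no formulation array reached it. The level of Usp18 ran from -1.02 over -0.021 to 1.57 in LFC and from -1.01 over 0.36 to 1.66 in HFC. In HF5, HF20 and HF75 its medians were -0.47, -0.13 and -0.38, within limits of -1.71 (HF75 at week 12) and 1.40 (HF5 at week 6). Usp18, too, was highest at day 6 in both control diets.

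**Figure D1:**
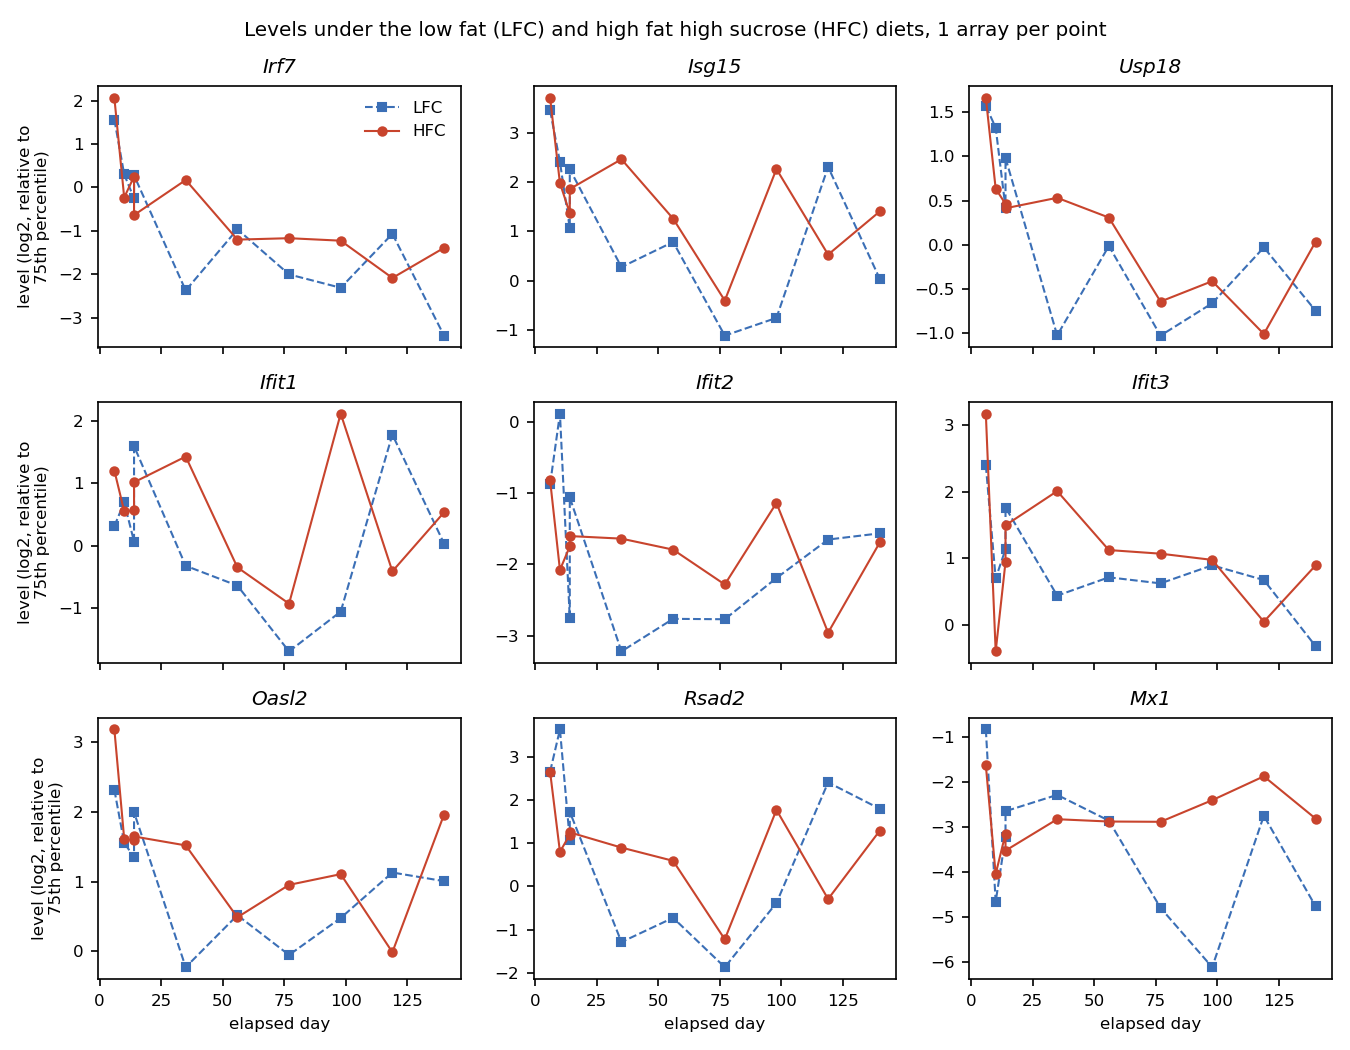
Level of each of the 9 genes (vertical axis, log2 signal minus log2 of the array's 75th percentile) against elapsed day (horizontal axis) in LFC (squares, dashed) and HFC (circles, solid), with 1 point for each array. Isg15 began at 3.45 (LFC) and 3.70 (HFC) on day 6, and the 2 lines of each gene crossed at later time points.

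The Ifit proteins bind viral RNA or the translation machinery and hold back the synthesis of viral proteins. The level of Ifit1 ran from -1.70 over a median of 0.049 to 1.78 in LFC, and from -0.93 over 0.56 to 2.12 in HFC. Its lowest and highest levels on any array both belonged to HF75, at -2.17 in week 3, on a dim array, and 2.20 in week 9. A span this wide within 1 diet covered the whole range of the other diets.

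Ifit2 had lowest, median and highest levels of -3.22, -1.92 and 0.12 in LFC. In HFC they were -2.96, -1.72 and -0.82. Its medians were -2.11 in HF5, -1.50 in HF20 and -1.78 in HF75, where it again had its lowest value (-3.68 at week 3, not well above background) and a value near its highest (0.058 at week 6). Ifit3 ran from -0.32 over 0.70 to 2.40 in LFC, and from -0.40 over 1.02 to 3.17 in HFC. Its medians were 0.50 in HF5, 1.13 in HF20 and 0.51 in HF75, with levels from -0.60 (HF75 at week 15) to 2.61 (HF5 at week 6). The highest Ifit3 value of each control diet was that of day 6, and that of each formulation diet was that of week 6.

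Oasl2 is a relative of the oligoadenylate synthetases, whose products switch on RNA degradation in infected cells, Rsad2 (viperin) is a radical SAM enzyme that blocks viral replication, and Mx1 is a dynamin-like GTPase of the nucleus that acts against influenza viruses. In C57BL/6 mice the Mx1 gene carries a deletion and makes no working protein, and the RefSeq gene table lists it as a transcribed pseudogene. Oasl2 had lowest, median and highest levels of -0.23, 1.07 and 2.32 in LFC, and of -0.015, 1.55 and 3.18 in HFC. Its medians under the formulation were 0.70 in HF5, 1.03 in HF20 and 0.76 in HF75, with levels from -0.79 (HF5 at week 12) to 2.27 (HF20 at week 9). Oasl2 shared its highest array, HFC at day 6, with Irf7, Isg15, Usp18 and Ifit3.

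Rsad2 ran from -1.87 (week 9) over a median of 1.40 to 3.63 (day 10) in LFC, and from -1.23 (week 9) over 1.05 to 2.65 (day 6) in HFC. Its medians were 0.21 in HF5, 0.24 in HF20 and 0.32 in HF75, with levels from -0.90 (HF75 at week 12) to 2.81 (HF5 at week 9). Mx1 had the widest range of the 9 genes, from -6.10 (LFC at week 12) to 0.84 (HF5 at week 12). Its medians were -3.03 in LFC, -2.84 in HFC, -1.51 in HF5, -2.59 in HF20 and -3.81 in HF75. The array with the highest Mx1 value, HF5 at week 12, was also the dimmest of the series. For each of the 9 genes the ranges of all 5 diets overlapped.

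**Figure D2:**
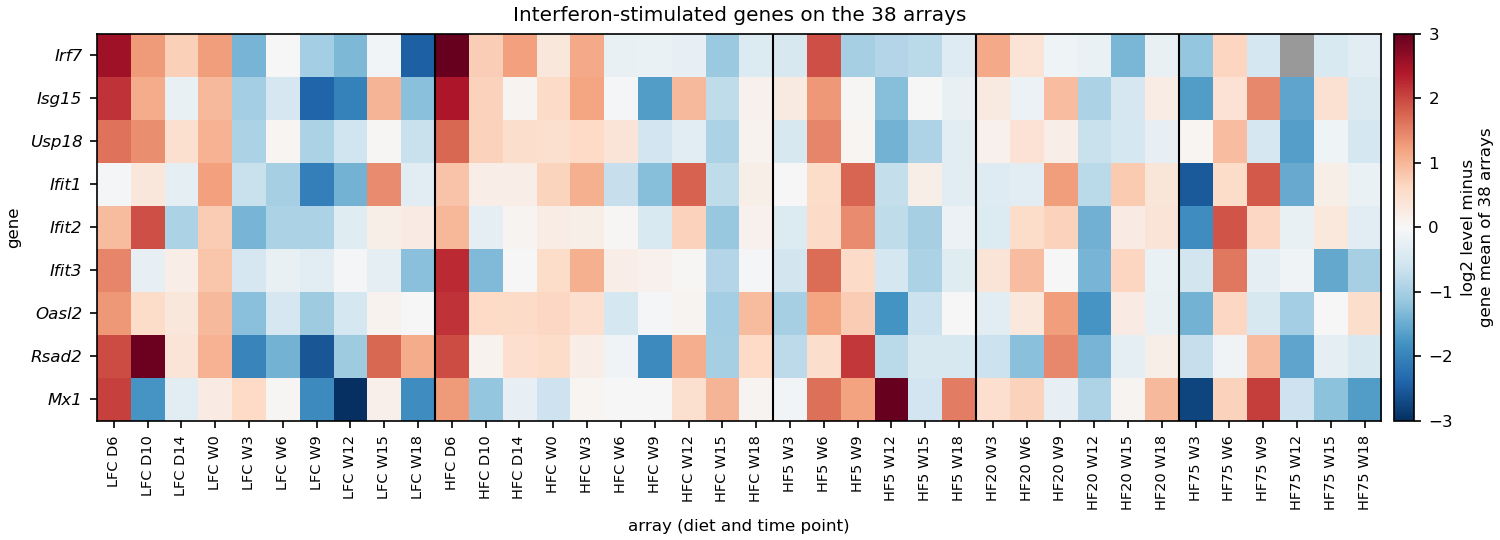
Levels of the 9 genes (rows) on all 38 arrays (columns, by diet and time), each row centred on its own mean and coloured by log2 units above (red) or below (blue) it, with the colour held at 3 and the missing Irf7 value in grey. The day 6 columns of LFC and HFC are red in nearly every row, and the columns of LFC at week 9 and HF75 at week 3 are mostly blue.

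The 9 genes tended to be high on the same arrays. Their mean level was highest on HFC at day 6 (1.69) and LFC at day 6 (1.40), followed by HF5 at week 6 (1.04). It was lowest on LFC at week 9 (-1.63), HF75 at week 3 (-1.56) and LFC at week 12 (-1.34). LFC at day 6 was among the 5 highest arrays for 8 of the 9 genes, and HFC at day 6 for 7. Marker content differed between these arrays. The brown fat markers (Ucp1, Cidea and Dio2) had a mean level of 2.19 on LFC at day 6 and -1.76 on HFC at day 6. The mesothelial markers had -5.61 and 2.53. LFC at day 10 had 3.23 and -5.82, and no other LFC array had a brown fat mean above -1.44. Both LFC arrays enter the slopes and diet differences below, and the part of this content in the values was not tested.

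Over the 38 arrays (37 for Irf7), Pearson's r between members was above 0 for 36 of 36 pairs, with a median of 0.62. The lowest was 0.11 (Mx1 with Usp18) and the highest 0.87 (Irf7 with Usp18). With each time point's mean taken off, the median was 0.57 and 35 of 36 pairs were above 0, from -0.0057 (Mx1 with Usp18) to 0.91 (Ifit1 with Isg15). Isg15 followed the mean of the other 8 genes most closely (r = 0.89) and Mx1 least (r = 0.35). These are descriptions over arrays, in which both genes of a pair share the RNA, the array and its scaling.

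**Figure D3:**
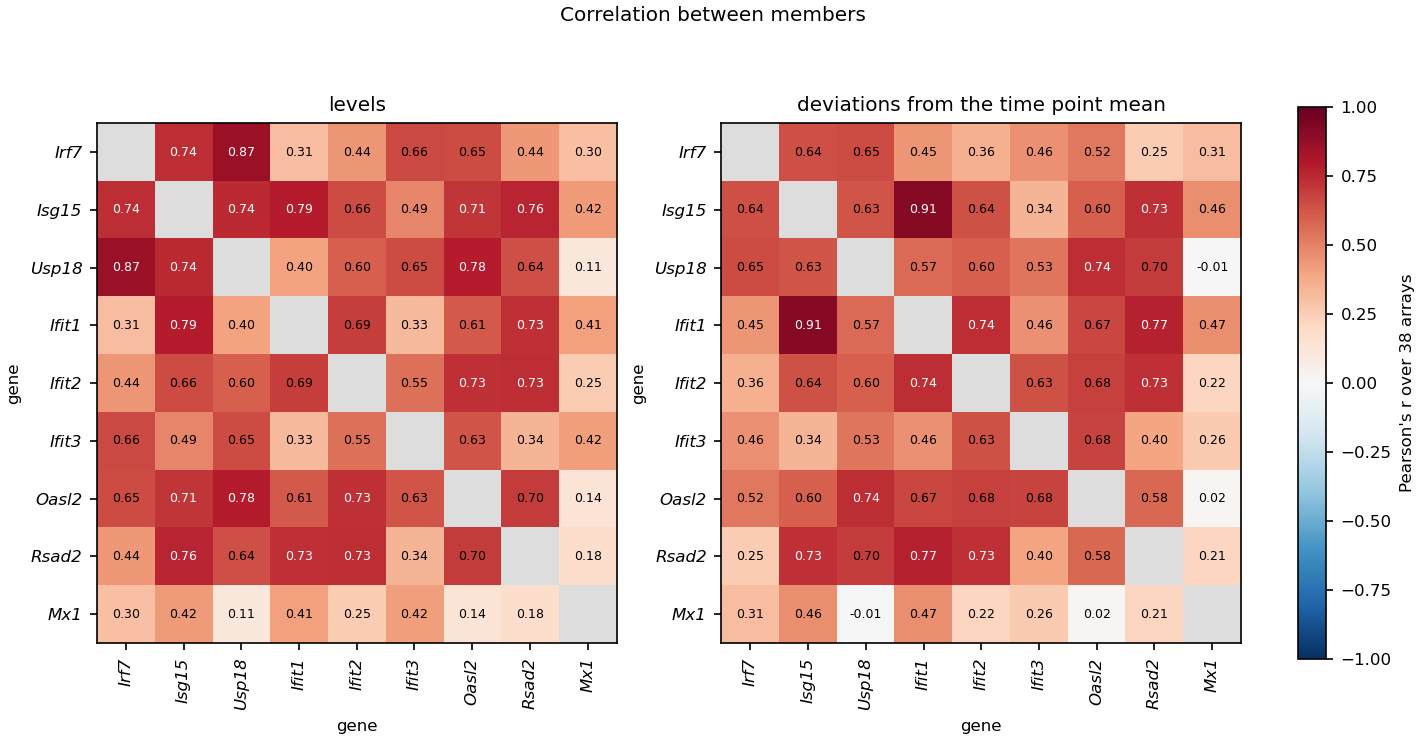
Pearson's r over 38 arrays for each pair of the 9 genes, with the genes on both axes and the colour giving r from -1 to 1, for levels (left) and for deviations from the time point mean (right). The 36 pairs of levels lie between 0.11 and 0.87, and the row of Mx1 is the palest.

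The genes outside the set whose levels were most like the mean of the 9 members were looked for among 21045 genes well above background on at least 19 arrays, of which 49.2% had an r above 0 and the median r was -0.0058. Oas1a, an oligoadenylate synthetase, came first (r = 0.88 over 38 arrays). Other named genes among the first 10 were Osm, the cytokine oncostatin M (0.84), D14Ertd668e, now Phf11d (0.84), Xaf1, an interferon-inducible regulator of apoptosis (0.83), Slc15a3, a lysosomal peptide transporter (0.82), Irg1, which makes itaconate in activated macrophages (0.82), LOC641199 (0.82) and the granule protease Gzmb (0.80). The other two carry no symbol on the array. After the time point means were taken off, the first 10 were Osm (0.87), Ifi204 (0.87), Plaur (0.82), Oasl1 (0.82), Slfn2 (0.82), A530023O14Rik, now Trim30b (0.82), Stx11 (0.82), Oas1a (0.81), Slfn4 (0.81) and LOC100044071 (0.81). Oas1a and Osm stood in both lists. Other interferon pathway genes, of which 92 could be ranked, took 5 of the first 50 places by level and 4 by deviation.

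The comparison of HFC with LFC asks what the high fat, high sucrose diet does to these genes. Of the 9 genes, 8 had a higher estimate in HFC, by up to 0.69 on the log2 scale, and none passed the test. The members' median difference was 0.40 against 0.0061 over all 31208 probes tested, of which 50.7% lay above 0. The fit took the time point as a term, over 20 arrays. No probe of the array passed at an adjusted p of 0.05 (limma, Benjamini-Hochberg, 0% called, smallest adjusted p 0.547), and 9.05% of probes had an unadjusted p under 0.05, 4.55% as higher in HFC. By its brightest probe no member did. These p-values measure the spread between time points of 1 array per diet, and a p that misses the threshold does not show that the diets gave equal levels.

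Mx1 had the largest difference, at 0.69 (SE 0.42, 95% interval -0.23 to 1.61, limma adjusted p 0.577). It was followed by Isg15 at 0.57 (SE 0.40, interval -0.30 to 1.44) and Ifit1 at 0.50 (SE 0.41, interval -0.39 to 1.39). Irf7 stood at 0.48 (SE 0.35, interval -0.29 to 1.25) and Oasl2 at 0.40 (SE 0.25, interval -0.15 to 0.95). All of these intervals contain 0, and with normexp background correction in place of the scanner's the Mx1 difference turned to -0.090.

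The differences of Ifit3 (0.23), Usp18 (0.12) and Ifit2 (0.099) were smaller than their standard errors of 0.25, 0.23 and 0.35. Rsad2 lay at -0.0092 (SE 0.50, interval -1.10 to 1.08). The second probe of Mx1 gave 1.09 (unadjusted p 0.0172, adjusted p 0.547, limma), the only 1 of the 13 probes with an unadjusted p under 0.05, but was well above background on 13 arrays only and followed the first weakly (r = 0.30). The mean of the 2 Mx1 probes gave 0.89 with an unadjusted p of 0.0084. The other probes of Rsad2 gave 0.52 and 0.48, and the second of Ifit2 gave 0.67, so that for both genes the size of the difference depended on the probe.

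**Figure D4:**
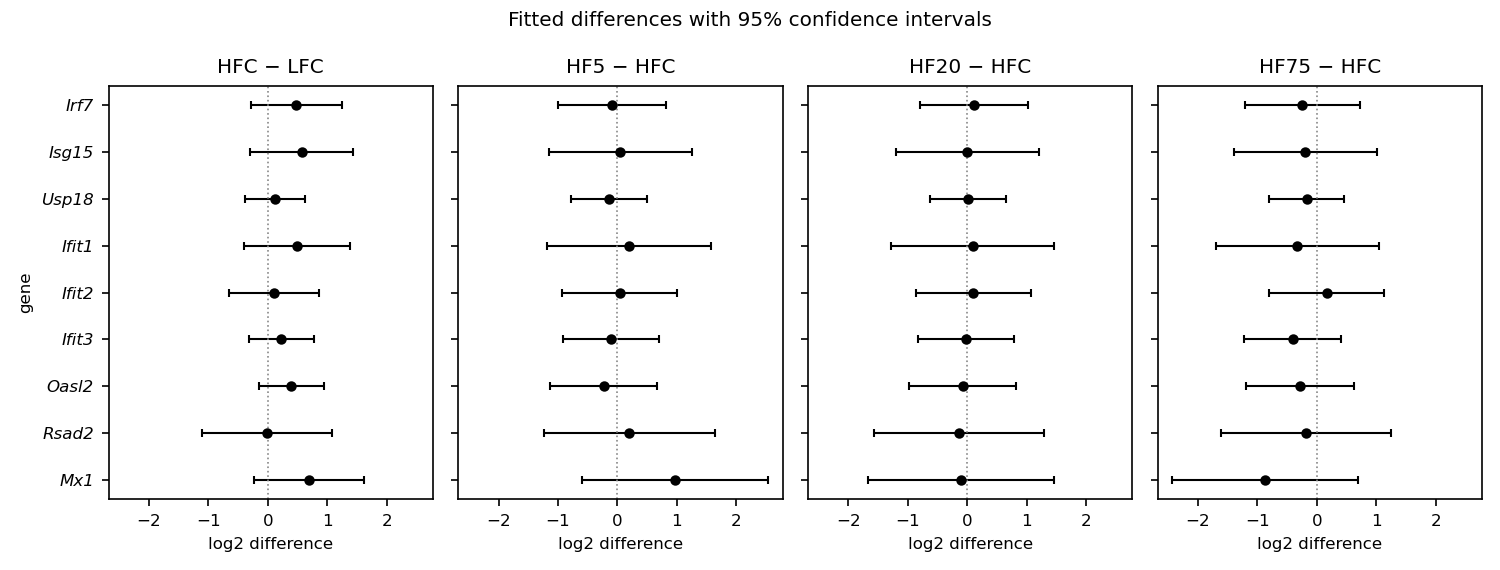
Estimated log2 difference (horizontal axis) of each of the 9 genes (vertical axis) for HFC minus LFC and for each formulation diet minus HFC, as points with 95% intervals from the limma fit and a line at 0. For HFC minus LFC, 8 of the 9 points lie above 0 and all 9 intervals cross it.

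The direction changed between time points. At weeks 9 and 12 all 9 genes were higher in HFC, with median differences of 0.71 and 1.09, while 49.8% and 58.0% of all probes were. The HFC array of week 12 had 11.1% of its spots marked as outliers. Its 92.1% of probes well above background was the highest share of the series. Mean marker levels of LFC and HFC at week 12 were 4.67 and 2.14 for fat cells and 0.64 and 2.22 for macrophages. For immediate early genes, which respond to tissue handling, they were 0.093 and 4.83. At week 9 the same means were 5.10 and 5.06, 0.86 and 1.74, and -0.0071 and 0.42. The part of these in the values of weeks 9 and 12 was not tested. At week 3, 8 of 9 were higher (49.9% of probes), and the median difference of 1.75 was the largest. At week 0 none of the 9 was higher (median -0.54, 49.7% of probes), and at week 15 only Mx1 was (median -1.14, 44.9%). The other time points gave 7 (day 6), 2 (day 10), 8 (day 14), 6 (week 6) and 7 (week 18) genes higher, where 44.9%, 44.7%, 46.8%, 53.3% and 47.5% of probes were. Each of these counts compares 1 array with 1 array, whose members move together, and has no replicate check.

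The differences therefore rested on particular weeks. Without week 15, Ifit1 (0.79), Isg15 (0.83) and Oasl2 (0.57) had unadjusted p-values of 0.0413, 0.041 and 0.0273 and adjusted ones of 0.441, 0.441 and 0.432 (limma), beside 11.2% of all probes with an unadjusted p under 0.05 in that fit. Without week 3, 6 of the 9 genes stayed above 0, and without weeks 9 and 12 together, 7 did, with a median of 0.16. HFC and LFC of a time point were scanned on the same day throughout, and lay on the same slide at 5 of the 10 time points. Within these 5 the mean difference was 1.27 ± 1.68 for Mx1 (SD, n = 5 time points), against 0.11 ± 1.08 in the other 5. It was -0.78 ± 2.07 for Rsad2 within a slide and 0.76 ± 1.04 otherwise, and -0.50 ± 1.26 and 0.70 ± 0.80 for Ifit2. The part of the slide in these values was not tested.

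Levels of cell type markers differed between the same arrays. The NK cell list (Ncr1, Klrb1c, Nkg7, Gzma and Prf1) had a median level of -2.77 in LFC and -0.90 in HFC, and the macrophage list one of 0.50 and 1.24. Over the 38 arrays the mean of the 9 genes had r = 0.72 with the NK cell list (rho = 0.73, and r = 0.70 without the 2 arrays farthest from its median). With the macrophage list r was 0.53 (rho = 0.53, and 0.41 without the 2 farthest arrays). The other immune lists gave 0.59 (neutrophil and monocyte), 0.54 (T cell), 0.50 (B cell), 0.47 (conventional dendritic cell) and 0.29 (plasmacytoid dendritic cell). Without the 2 farthest arrays of each list, r was 0.56, 0.56, 0.51, 0.36 and 0.50 in this order. The fibroblast list gave 0.59 (rho = 0.72), and its r of 0.74 without the 2 farthest arrays was the highest such r of the lists. The erythroid list gave 0.48 and the endothelial list 0.39. Immediate early genes, which respond to tissue handling, gave 0.47 (rho = 0.35, r = 0.29 without the 2 farthest arrays, LFC at weeks 9 and 12, and r = 0.61 for deviations from the mean of each time point). The adipocyte list gave -0.077 and the brightness of the array 0.0066. For the same deviations r was 0.66 (macrophage), 0.66 (NK cell), 0.65 (B cell), 0.60 (neutrophil and monocyte) and 0.54 (T cell). It was 0.48 (fibroblast), 0.41 (endothelial), 0.31 (conventional dendritic cell), 0.31 (erythroid), 0.23 (plasmacytoid dendritic cell) and -0.22 (adipocyte). The part of what these lists mark in the levels of the 9 genes was not tested.

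Across time, the estimated slope lay below 0 for all 9 genes in LFC and for 8 in HFC, and none passed the test after adjustment. The slope is the change of the level per week of elapsed time, fitted within 1 diet over its 10 arrays, with week 0 set to day 14. In LFC, 28473 probes were tested, 49.2% of them had a slope above 0, 2.42% were lower with an unadjusted p under 0.05, and 0% passed (smallest adjusted p 0.639, limma). Irf7 had the steepest slope, -0.17 per week (SE 0.044, p 0.0029, adjusted p 0.933). Usp18 at -0.093 (SE 0.035, p 0.022) and Ifit3 at -0.072 (SE 0.029, p 0.031) were the only other members with an unadjusted p under 0.05. The remaining slopes in LFC were -0.11 for Isg15 and Mx1, -0.051 for Oasl2, -0.049 for Rsad2, -0.033 for Ifit2 and -0.024 for Ifit1.

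In HFC the slope of Irf7 was -0.13 per week (SE 0.036, p 0.0044, adjusted p 0.480) and that of Usp18 -0.081 (SE 0.025, p 0.0086, adjusted p 0.517, limma). Mx1 had the only slope above 0, at 0.037. Of 31100 probes, 53.8% had a slope above 0, 4.42% were lower with an unadjusted p under 0.05, and 0% passed (smallest adjusted p 0.399). Left-out time points kept the slope of Irf7 between -0.21 and -0.14 in LFC and between -0.16 and -0.093 in HFC, where the value nearest 0 came without day 6. In LFC the p of Usp18 rose to 0.063 without day 6 and to 0.053 without day 10, and that of Ifit3 to 0.090, 0.066 and 0.160 without day 6, week 0 and week 18. In LFC, 1 (without day 6, 2.86% of probes) to 5 (without week 15, 7.16%) members had an unadjusted p under 0.05. In HFC 2 to 3 members had such a p, beside 5.41% to 10.2% of probes. There were 3 such members without day 6 (6.99%), day 10 (5.8%) or week 18 (7.56%). Those gained were Isg15 (-0.17, p 0.0077) and Mx1 (-0.16, p 0.027) without week 15 in LFC, and in LFC also Mx1 without day 10 (-0.15, p 0.027). In HFC they were Oasl2 without week 18 (-0.12, p 0.0081), Ifit3 without day 10 (-0.084, p 0.029) and Mx1, above 0, without day 6 (0.068, p 0.018).

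**Figure D5:**
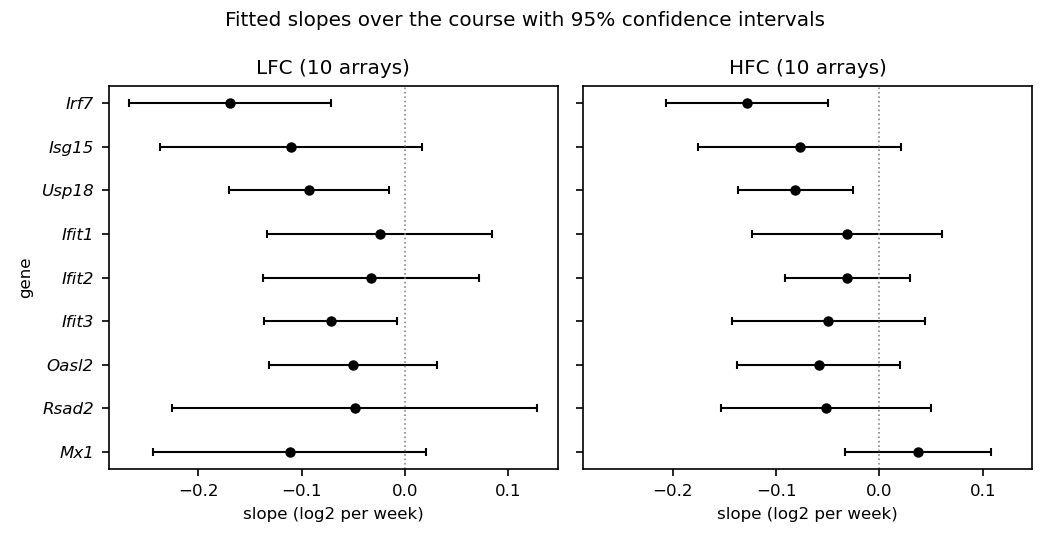
Slope of the level per week (horizontal axis, log2 units) of each of the 9 genes (vertical axis) in LFC and in HFC, as points with 95% intervals from the limma fit over 10 arrays of a diet and a line at 0. Irf7 is farthest to the left in both diets, at -0.17 and -0.13, and Mx1 in HFC is the only point to the right of 0.

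The difference between HFC and LFC changed with time for Mx1 by 0.15 per week (SE 0.048, 95% interval 0.044 to 0.25, unadjusted p 0.010, adjusted p 0.981, limma). It was the only member with an unadjusted p under 0.05, beside 3.17% of all 31208 probes in that direction, and 0% of probes passed. For 6 of the 9 genes the difference grew with time, as it did for 53.1% of probes. With 1 time point left out this count ran from 4 (without day 10, week 12 or week 18) to 9 (without week 3 or week 15), and the members' median from -0.0073 to 0.065 per week. The Mx1 value was kept with any time point left out (unadjusted p from 0.0058 to 0.0259), but with the normexp background correction in place of the scanner's it was 0.067 with p = 0.228, and with the mean of both Mx1 probes it was 0.074 with p = 0.0748, and without the time point as a block its p was 0.0509. By that conversion day 14 and week 0 fall on the same elapsed day, and they show the spread that arrays of 1 diet can have. In LFC all 9 genes were higher at week 0 than at day 14, by 0.53 (Irf7) to 1.70 (Ifit2), and in HFC the same difference ran from -0.89 (Irf7) to 0.55 (Ifit3).

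The formulation groups ask whether KAL-1 at 5, 20 or 75 µg changes these genes under the high fat, high sucrose diet. No member passed in any of the 3 dose comparisons or in their mean, fitted over the 30 arrays of weeks 3 to 18 with the time point as a term (29 arrays for Irf7). Of 33787 probes, 0% passed at each dose and 0% in the mean, with a smallest adjusted p of 0.778 for HF5 and near 1 for the others (limma). Unadjusted p-values under 0.05 were found for 4.72% of probes in HF5, 1.54% in HF20, 1.96% in HF75 and 1.71% in the mean, and for no member. The 3 comparisons share the 6 HFC arrays, so their values are set side by side and are not independent.

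In HF5, 5 of the 9 genes were above HFC, where 47.3% of probes were, and in HF20 also 5, where 56.2% of probes were. In HF75 only Ifit2 was, where 54.1% of probes were, and in the mean of the doses also 1 gene, beside 51.9% of probes. Over the mean of the doses the 9 differences lay between -0.20 (Oasl2) and 0.10 (Ifit2).

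Irf7 differed from HFC by -0.094 in HF5, 0.11 in HF20 and -0.24 in HF75. Isg15 differed by 0.050, 0.0046 and -0.19, and Usp18 by -0.14, 0.015 and -0.17. None of these exceeded its standard error, the largest of which was 0.58. Ifit1 differed by 0.20, 0.097 and -0.32, Ifit2 by 0.037, 0.10 and 0.17, and Ifit3 by -0.11, -0.023 and -0.41. Oasl2 differed by -0.23, -0.074 and -0.28, and Rsad2 by 0.20, -0.14 and -0.18. Beyond its standard error lay, apart from Mx1, Ifit3 in HF75 alone (SE 0.39, 95% interval -1.22 to 0.41). Mx1 differed by 0.97 in HF5 (SE 0.76, interval -0.59 to 2.53), by -0.10 in HF20 and by -0.87 in HF75 (SE 0.76, interval -2.43 to 0.70). Without the dim HF5 array of week 12 the Mx1 difference in HF5 was 0.32 (p 0.657 before adjustment, limma). All 3 intervals of Mx1 contain 0.

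Within the weeks the formulation arrays moved with each other against HFC. At week 3 none of the 9 genes was above HFC in HF5 and HF75, where 46.1% and 61.0% of probes were, and 2 were in HF20 (52.1%). The HF75 array of week 3 was the dimmest after HF5 at week 12, and had the lowest mean of the macrophage markers (-1.10). At week 6 all 9 were above HFC in HF5 (49.9% of probes) and HF75 (48.1%), and 7 in HF20 (53.7%). Mean marker levels of HFC, HF5, HF20 and HF75 at week 6 were, in this order, 1.94, 2.03, 0.55 and 0.89 for B cells. They were 0.71, 0.14, -0.16 and -1.40 for T cells, and -5.91, -5.07, -5.60 and -2.87 for the mesothelial list. For neutrophils and monocytes they were 1.80, 2.35, 0.081 and 1.62. At week 9 the counts were 8 in HF5 (52.5%), 7 in HF20 (52.8%) and 6 in HF75 (51.3%). Mean marker levels of HFC, HF5, HF20 and HF75 at week 9 were, in this order, 5.06, 3.12, 2.59 and 3.29 for fat cells. They were 1.74, 2.06, 2.03 and 1.61 for macrophages, and 0.42, 5.08, 5.14 and 4.91 for immediate early genes. At week 12 the counts were 1 in HF5 (54.0%), 1 in HF20 (50.3%) and 0 of 8 in HF75 (50.02%). The HF75 array of that week had 14.3% of its spots marked as outliers. In the same order of diets, the means were 2.14, 4.03, -0.36 and 5.08 for fat cells and 2.22, 0.010, -0.97 and 1.22 for macrophages. For immediate early genes they were 4.83, 4.63, 4.21 and 1.91. HF5 also had a brown fat mean of 4.58, against -2.15 in HFC. The part of this content in the counts of weeks 6, 9 and 12 was not tested. Since the 3 doses of a week share 1 HFC array, these counts are not 3 separate observations. At week 15 the count was 7 for each dose, beside 44.7% (HF5), 54.7% (HF20) and 45.4% (HF75) of probes. At week 18 it was 2 in HF5 (39.9%), 5 in HF20 (54.6%) and 1 in HF75 (45.8%). Leaving out 1 week moved the number of genes above HFC between 2 and 9 in HF5, 1 and 9 in HF20, 0 and 5 in HF75, and 0 and 9 in the mean of the doses. In the mean it was 9 without week 3 and 6 without week 12, against 1 with every week kept.

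The formulation arrays were partly scanned on other days than the HFC array of their week. These were all of them at week 9, HF20 and HF75 at weeks 3 and 18, and HF75 at week 6. A block by scan day thus sets HF75 directly against HFC at weeks 12 and 15 only, and HF20 at weeks 6, 12 and 15. In its values the scan day and the weeks compared cannot be told apart. Leaving out week 9 alone gave 2 (HF5), 1 (HF20) and 0 (HF75) genes above HFC. With arrays blocked by scan day rather than by time point, 1 gene in HF5, 1 in HF20 and 0 in HF75 lay above HFC, with medians of -0.28, -0.23 and -0.70, where 46.3%, 52.0% and 50.6% of probes lay above it. Rsad2 was then the 1 member with an unadjusted p under 0.05 in HF75 (-1.38, p 0.038), beside 2.28% of probes. In the mean of the doses under this block 0 of 9 genes lay above HFC and 1 had an unadjusted p under 0.05, beside 0.876% of probes. Without weeks 9 and 12, Mx1 was the 1 such member in HF75 (-1.54, p 0.033), beside 4.31% of probes. The part of the scan day in the dose differences was not tested further.

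Other genes of the interferon system were taken from lists by role, and 0 of their genes passed after adjustment in any of the 8 comparisons (limma). Among interferon ligands, 10 of the 18 on the array could be tested between HFC and LFC. Ifng, the type II interferon of NK and T cells, was the only one with an unadjusted p under 0.05, higher by 1.40 (SE 0.54, p 0.024, adjusted p 0.547). Over all probes 4.55% were higher at that threshold. Ifnab, a type I ligand gene, stood at -1.33 (p 0.059). The level of Ifng followed the mean of the 9 genes over 38 arrays with r = 0.61 and that of Ifnb1, the type I ligand of macrophages and fibroblasts, with r = 0.45. The Ifna genes are near-identical copies whose probes may share signal, and their values are uncertain.

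Of the 12 receptor and JAK-STAT genes, 6 lay above 0 and none had an unadjusted p under 0.05. Ifnlr1, a receptor chain for type III interferon, was among the 2 of smallest p (0.69, p 0.177). Of 17 nucleic acid sensors and adaptors, 10 lay above 0. Ikbke, a kinase that activates IRF transcription factors (0.96, p 0.0037), and Irf5, a transcription factor downstream of Toll-like receptors (1.01, p 0.020), had unadjusted p-values under 0.05, as did Tlr7, a sensor of single-stranded RNA named here after its values were seen (0.76, p 0.041). All 3 had an adjusted p of 0.547 (limma). Over all probes 50.7% lay above 0, and 4.55% were higher with an unadjusted p under 0.05. With normexp background the Ikbke difference was 0.027. Of 5 negative regulators, 4 lay above 0, and the phosphatase gene Ptpn6 had the smallest p (0.56, p 0.028), before Pias1 (0.45, p 0.149).

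Among the target genes, 15 of 30 other type I interferon-stimulated genes lay above 0 in HFC minus LFC, with a median of 0.0035, and 12 of 22 interferon gamma response genes did, with a median of 0.10. None had an unadjusted p under 0.05. The smallest belonged to Oas3 (0.84, p 0.057, but -0.15 with normexp background) and Ifi204 (0.55, p 0.075) in the first list, and to Ciita, the master regulator of MHC class II (0.94, p 0.066), and its target H2-Ab1 (0.51, p 0.088) in the second. The direction found for 8 of the 9 members was thus found for 15 of 30 genes of the wider type I list, and for 50.7% of all probes. Some target genes fell under an unadjusted p of 0.05 under alternatives (limma). H2-Ab1 gave 0.87 (p 0.0065) with quantile normalization, 0.80 (p 0.043) with normexp and 0.80 (p 0.034) with both. Of all probes 8.06%, 8.76% and 7.96% did so there. With the slide as a block, Ifi204 (0.59, p 0.040) and Oas3 (0.88, p 0.044) did, beside 7.97% of probes.

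The slopes of both target lists lay below 0 for most genes. Of the other type I genes, 10 of 30 in LFC and 9 of 30 in HFC had a slope above 0, and of the interferon gamma genes, 1 of 22 and 2 of 22. Over all probes 49.2% in LFC and 53.8% in HFC did. Slopes below 0 with an unadjusted p under 0.05 were found for Zbp1, Oas1a and Isg20 in LFC and for Isg20, Zbp1 and Dhx58 in HFC. Those of the interferon gamma list were Ido1, Irgm1, Tgtp1, Iigp1 and Igtp in HFC, and none in LFC. Such slopes were found for 2.42% of all probes in LFC and 4.42% in HFC. Of the 10 ligands tested, 5 had a slope above 0 in LFC and 8 in HFC, where Ifna1, Ifna2 and Ifna14 had slopes above 0 with an unadjusted p under 0.05. In HFC 3.46% of all probes had such a slope. The Ifna genes are near-identical, and which copy a probe read is uncertain. The genes of these lists were chosen for naming after their slopes were seen.

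In the mean of the doses against HFC, no listed gene had an unadjusted p under 0.05. The smallest p-values by list were those of Ly6e (-0.48, p 0.100) and Parp9 (-0.35, p 0.169) among type I genes, and of the chemokine Cxcl9 (-0.75, p 0.105) and Gbp4 (-0.37, p 0.213) among interferon gamma genes. In the ligand list they were Ifna7 (-0.21, p 0.382) and Ifna13 (-0.34, p 0.395), and in the receptor list Ifnar1 (-0.37, p 0.136) and Jak1 (-0.39, p 0.181). The remaining ones were Ikbke (-0.39, p 0.186) and Ddx58 (-0.51, p 0.309) among the sensors, and Pias1 (0.27, p 0.409) and Socs3 (0.42, p 0.563) among the negative regulators. Of the 12 receptor and JAK-STAT genes, 1 lay above 0 there, beside 51.9% of all probes.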

How the data were processed

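Per the labels and the file headers, the arrays were read with Agilent Feature Extraction (version 9.1 in the submitters' notes), whose deposited processed signal is a linear intensity after background subtraction. The authors also deposited a table of log2 ratios of HFC to LFC, used here as an alternative only; it followed the ratio of the scanner signals with r from 0.993 to 0.999. The probes' build is mm9 in the headers. Columns of other samples numbered 0.

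From the intensity values, control and outlier spots were left out, spots of a probe averaged, and log2 levels scaled to each array's 75th percentile. Probes well above background on at least 50% of the arrays of 1 diet were tested with limma 3.58.1 in R 4.3.3, with the time point as a block for diet comparisons, elapsed day (from the labels, with week 0 placed at day 14 as the authors converted it) for slopes, 8 comparisons and Benjamini-Hochberg adjustment over all probes. On simulated data for HFC minus LFC (31208 probes), 100 of 100 probes shifted by 3 log2 units and 88 of 100 shifted by 1.5 were recovered. For the mean of doses minus HFC (33787 probes), 95 of 100 and 87 of 100 were. The simulated noise was independent between arrays, smaller than the observed spread of each probe and without differences between time points. Only probes well above background on most arrays were shifted, so these shares are not the power of the real comparisons. The precision is limited by the number of arrays.

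The members, lists and comparisons were chosen with earlier results of these data known. The genes named were the 9 members, the genes of each list past the threshold or else the 2 of smallest p in HFC minus LFC and in the mean of doses, and the 10 genes most correlated with the members' mean. A gene that this rule names is not reported here. Alternatives covered background correction, quantile normalization, filters, slide, scan day, blocks, dose labels and left-out arrays.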

Additional observations from a re-analysis of the deposited data

Results flagged for a closer look

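Among 45 groups of 5 to 10 levels, 1 for each gene and diet, 1 held an array far from the rest. The Irf7 level of HF5 at week 6 was 0.95, and the nearest of the other 5 HF5 arrays lay at -1.36, so that the gap took up most of the range of the group. By chance about 1 in 20 such groups would stand out, which is 2.25 of 45. On HF5 at week 6 the B cell list had a mean of 2.03, against -3.87 to -0.33 on the other HF5 arrays. The mesothelial list had -5.07 there, against -3.40 to 1.11. The part of this content in the Irf7 level was not tested.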

How the results depend on the processing

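No probe passed the adjusted threshold under any alternative run, in any of the 8 comparisons, and the count of 0 therefore never moved. Of 1450 values of named genes under the alternatives, 1337 kept their direction and 113 changed it. Leaving out the pairing by time point (no replicate block) gave the same 0 probes in all 6 comparisons that use it and the same numbers of members above 0. It took the p of Mx1 for the change with elapsed day from 0.010 to 0.0509, and the probes with an unadjusted p under 0.05 from 9.05% to 3.56% for HFC minus LFC. The methods' t-test, paired, called 9.12% of probes at an unadjusted p under 0.05 for HFC minus LFC and none after Benjamini-Hochberg adjustment. The log2 ratios of the deposited file, set against 0, called 8.96%, with 8 of 9 members above 0. Normexp background with the 75th percentile shifted the median of all probes by -0.23 (HFC minus LFC, 26.0% above 0), 0.26 (HF5, 68.1%), 0.24 (HF20, 70.3%), -0.12 (HF75, 34.2%) and 0.12 (mean of doses, 64.9%). Arrays are few and unreplicated at a time point, which limits all of these values.

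The values of genes named with a value that changed direction follow, and the cause was not tested. For the mean of doses the members were given as a count only, which was 1 of 9 above 0 as reported, 4 with normexp and 0 to 9 with 1 time point left out. For HFC minus LFC they were, with quantile normalization, Ifit2 (-0.024) and Rsad2 (0.028). With normexp background they were Ifit2 (-0.16), Mx1 (-0.090), Rsad2 (0.11) and Oas3 (-0.15), with normexp and quantile, Ifit2 (-0.026) and Rsad2 (0.023), and with the slide as a block, Rsad2 (0.24). Rsad2 turned to 0.34 without days 6 and 10 and to 0.33 as the mean of its probes, and without weeks 9 and 12 Ifit2 turned to -0.069 and the LFC slope of Ifit1 to 0.010. For HF5 minus HFC, quantile normalization gave Ifit2 -0.069, and normexp Isg15 -0.12, Irf7 0.45, Usp18 0.11 and Rsad2 -0.033. The scan day block gave Ifit1 -0.39, Ifit2 -0.23, Isg15 -0.43 and Rsad2 -0.55, the dose by diet label Ifit3 0.18, and leaving out weeks 9 and 12 Ifit2 -0.050, Irf7 0.22 and Rsad2 -0.23. For HF20 minus HFC, quantile normalization gave Ifit3 0.059, normexp Isg15 -0.18 and Mx1 0.41, and both together Ifit3 0.054, Isg15 -0.0081 and Usp18 -0.0043. The slide block gave Isg15 -0.023, the scan day block Ifit1 -0.39, Ifit2 -0.035, Isg15 -0.42 and Usp18 -0.22, and the diet label Ifit1 -0.12, Ifit2 -0.20 and Usp18 -0.063. Without weeks 9 and 12 HF20 gave Ifit3 0.35, Isg15 -0.17, Mx1 0.27, Oasl2 0.026 and Usp18 -0.087. For HF75 minus HFC, normexp gave Irf7 0.052, the scan day block Ifit2 -0.30, leaving out weeks 9 and 12 Usp18 0.049, and the mean of probes Ifit2 -0.050. For the mean of doses, normexp gave Gbp4 0.014, Ifna7 0.15, Ifna13 0.11, Ikbke 0.30 and Socs3 -0.0024, the scan day block Socs3 -0.39, and leaving out weeks 9 and 12 Socs3 -0.14.

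With 1 time point left out in turn, the ranges that crossed 0 were, for HFC minus LFC, -0.25 to 0.30 (Rsad2), -0.066 to 0.35 (Ifit2) and -0.041 to 0.24 (Usp18), and for the LFC slope of Ifit2 -0.065 to 0.00045. For HF5 they were -0.37 to 0.73 (Ifit1), -0.33 to 0.33 (Ifit2), -0.43 to 0.20 (Ifit3), -0.54 to 0.21 (Irf7), -0.28 to 0.51 (Isg15), -0.62 to 0.099 (Oasl2), -0.38 to 0.049 (Usp18) and -0.57 to 0.62 (Rsad2). For HF20 they were -0.39 to 0.63 (Ifit1), -0.15 to 0.55 (Ifit2), -0.34 to 0.26 (Ifit3), -0.52 to 0.39 (Isg15), -0.35 to 0.29 (Oasl2), -0.14 to 0.11 (Usp18), -0.83 to 0.33 (Rsad2) and -0.30 to 0.16 (Mx1). For HF75 they were -1.01 to 0.33 (Ifit1), -0.17 to 0.61 (Ifit2), -0.86 to 0.34 (Isg15), -0.47 to 0.23 (Irf7), -0.57 to 0.044 (Oasl2), -0.37 to 0.054 (Usp18) and -0.78 to 0.32 (Rsad2). For the mean of doses Socs3 ran from -0.39 to 0.78.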
